A study of Mus musculus with 4 samples.

Results

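The endoplasmic reticulum (ER) chaperones and the unfolded protein response were followed through 11 probe sets of 8 mouse genes, out of 45037 probe sets on the array. The genes were chosen with earlier results of these data known. Their probe sets were taken by manufacturer ID, and a gene symbol was assigned to each ID without use of measured values. They cover the chaperones Hspa5, Hsp90b1, Calr and Canx, the co-chaperones Dnajb9 and Sdf2l1, the degradation factor Herpud1 and the transcription factor Xbp1. Hspa5, Calr and Xbp1 are each read by 2 probe sets, so the 11 values are not 11 independent genes.

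The 4 arrays compare wild type fibroblasts with fibroblasts ablated for SIN1 (SIN1 KO), 2 arrays per genotype. SIN1 is a subunit of mTOR complex 2, the kinase complex that phosphorylates AKT. The cells are C57BL/6 mouse fibroblasts grown in DMEM with no further treatment named; the labels call them both MEFs and epithelial fibroblasts, and describe the knock-out cells as altered in metabolism. The labels do not state how the gene was ablated, or whether arrays with the same genotype represent different cultures, embryos or lines, so every test below measures the spread between these arrays alone, which may be technical.

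Proteins that enter the secretory pathway fold in the ER, where chaperones hold them until folding is complete. When unfolded proteins build up, the sensors IRE1, PERK and ATF6 switch on the unfolded protein response. IRE1 splices the Xbp1 mRNA so that it encodes an active transcription factor, and cleaved ATF6 binds promoters together with NF-Y. Both raise the transcription of ER chaperones and of the machinery that exports misfolded proteins for degradation, and fibroblasts, which secrete large amounts of collagen, make heavy use of these chaperones.

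The promoter element through which ATF6 acts is printed here to show where it lies in these genes. It is no independent finding: such elements were first described in promoters of ER chaperone genes, and the genes were picked as known members of the response. RefSeq promoters of assembly GRCm38.p6, from 250 bases before to 50 after the start of transcription, were matched by symbol for 8 of the 8 genes. The ER stress response element, CCAAT and CCACG separated by any 9 bases, was searched on both strands. It was found in the promoters of 4 of the 8 genes, Hspa5, Hsp90b1, Calr and Canx, against 0.119% of all 32851 promoters (39 promoters). The ER stress response element II, ATTGG and CCACG separated by any 1 base, was found in 1 gene, Herpud1, and in 0.0365% of all promoters (12 promoters). The core of the unfolded protein response element, TGACGTGG, was found in 0 of the 8 genes and in 0.676% of all promoters. The letters of these motifs were not found in the windows of Dnajb9, Sdf2l1 and Xbp1. A match does not show binding.

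The stretches around the matches follow, 5′ to 3′ on the strand of the gene, with the matched element in capitals. They lie at chr2:34772000-34772068 (plus strand) for Hspa5, chr10:86705508-86705681 (minus strand) for Hsp90b1, chr8:84847050-84847118 (minus strand) for Calr, chr11:50325775-50325843 (minus strand) for Canx and chr8:94386352-94386412 (plus strand) for Herpud1. Hsp90b1 holds 2 elements, the second of which, like that of Calr, reads on the opposite strand.

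Hspa5: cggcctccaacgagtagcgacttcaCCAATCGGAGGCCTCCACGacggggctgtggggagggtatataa

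Hsp90b1: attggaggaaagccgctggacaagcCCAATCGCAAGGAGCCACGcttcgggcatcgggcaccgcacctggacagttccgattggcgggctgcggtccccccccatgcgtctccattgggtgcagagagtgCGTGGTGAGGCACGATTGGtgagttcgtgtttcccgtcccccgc

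Calr: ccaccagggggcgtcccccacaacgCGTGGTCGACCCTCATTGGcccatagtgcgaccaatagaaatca

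Canx: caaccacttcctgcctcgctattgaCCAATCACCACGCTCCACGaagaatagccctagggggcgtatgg

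Herpud1: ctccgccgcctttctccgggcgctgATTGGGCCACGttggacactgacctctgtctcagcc

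The element of Hspa5 ends 47 bases before the start of transcription, and that of Herpud1 ends 42 bases before the start. The elements of Calr and Canx end 144 and 127 bases before it, and those of Hsp90b1 194 and 89 bases before it.

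Values are log2 expression as deposited, so a difference of 1 is a change of 2-fold, and a level is compared only with the same probe set on other arrays. The background of an array, taken as its highest Bacillus subtilis control, stood between 3.75 and 4.27. Each of the 11 probe sets was above it on the 4 arrays, by at least 0.73, the margin of Dnajb9 on SIN1 KO replicate 2. The arrays of replicate number 2 stood farthest apart: the correlation across all probe sets, which are not independent replicates, was 0.904 between wild type 2 and SIN1 KO 2 and 0.971 between wild type 1 and SIN1 KO 1. The SD of the difference SIN1 KO minus wild type over all probe sets was 1.15 between the number 2 arrays and 0.632 between the number 1 arrays. The 3′ minus 5′ signal of the Gapdh control, a measure of RNA quality, was 0.69, 0.72, 1.09 and 0.64 in wild type 1, wild type 2, SIN1 KO 1 and SIN1 KO 2, and that of the beta-actin control -0.27, -0.40, -0.33 and -0.31. In the same array order it was -1.90, -1.95, -1.62 and -1.69 for the transferrin receptor control, which was higher on both SIN1 KO arrays, and 1.63, 2.27, 1.43 and 1.81 for the pyruvate carboxylase control, which was highest on wild type 2. The part of RNA quality in the values below was not tested. Probe sets for Mapkap1, the gene of SIN1, and for fibroblast or epithelial markers were not analysed here, so neither the genotype nor the cell type was checked.

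Of the 11 probe sets, 9 had a lower mean in SIN1 KO and 2 a higher one, against 46.0% of all probe sets with a lower mean. Their median difference, SIN1 KO minus wild type, was -0.71, beside 0.04 over all probe sets. The set was chosen with earlier results of these data known, so these comparisons describe it and are no test. By gene, 6 of 8 were lower on the mean and 2, Sdf2l1 and Herpud1, were higher. None of the 11 was called by limma when the whole array was fitted, with adjusted p from 0.82 to 0.936, nor was any other probe set (0% of the 45037, lowest adjusted p 0.128; 2509 at an unadjusted p under 0.05). In bulk RNA, a lower value cannot tell fewer cells that express a gene from less transcript per cell. At an unadjusted threshold of 0.05, 1 of the 11 was called, the Xbp1 probe set 1420886_A_AT, which was lower in SIN1 KO, as were 2.57% of all probe sets at that threshold. The call was lost with any 1 array left out, with the replicate number as a block, with the filter at the median level, with a trended prior and after scaling to the hybridisation controls. Fits with an array left out or a block have 1 residual degree of freedom instead of 2, which raises p for the same difference and spread. The trended prior called both Hspa5 probe sets instead, among 2512 of all 45037 probe sets, 1199 of them lower in SIN1 KO. In 5 probe sets both SIN1 KO arrays lay below both wild type arrays, and in 1 they lay above. Over all probe sets these shares were 14.9% and 20.4%, and 17.3% and 20.0% among the 22519 brighter probe sets (mean level not under the median), where 11 of the 11 fall. The 5 come from 3 genes, Hspa5, Dnajb9 and Xbp1, and the 1 is Herpud1. With 2 arrays per genotype, the smallest two-sided p of an exact permutation test is 0.333, so no single gene can pass it.

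**Figure D1:**
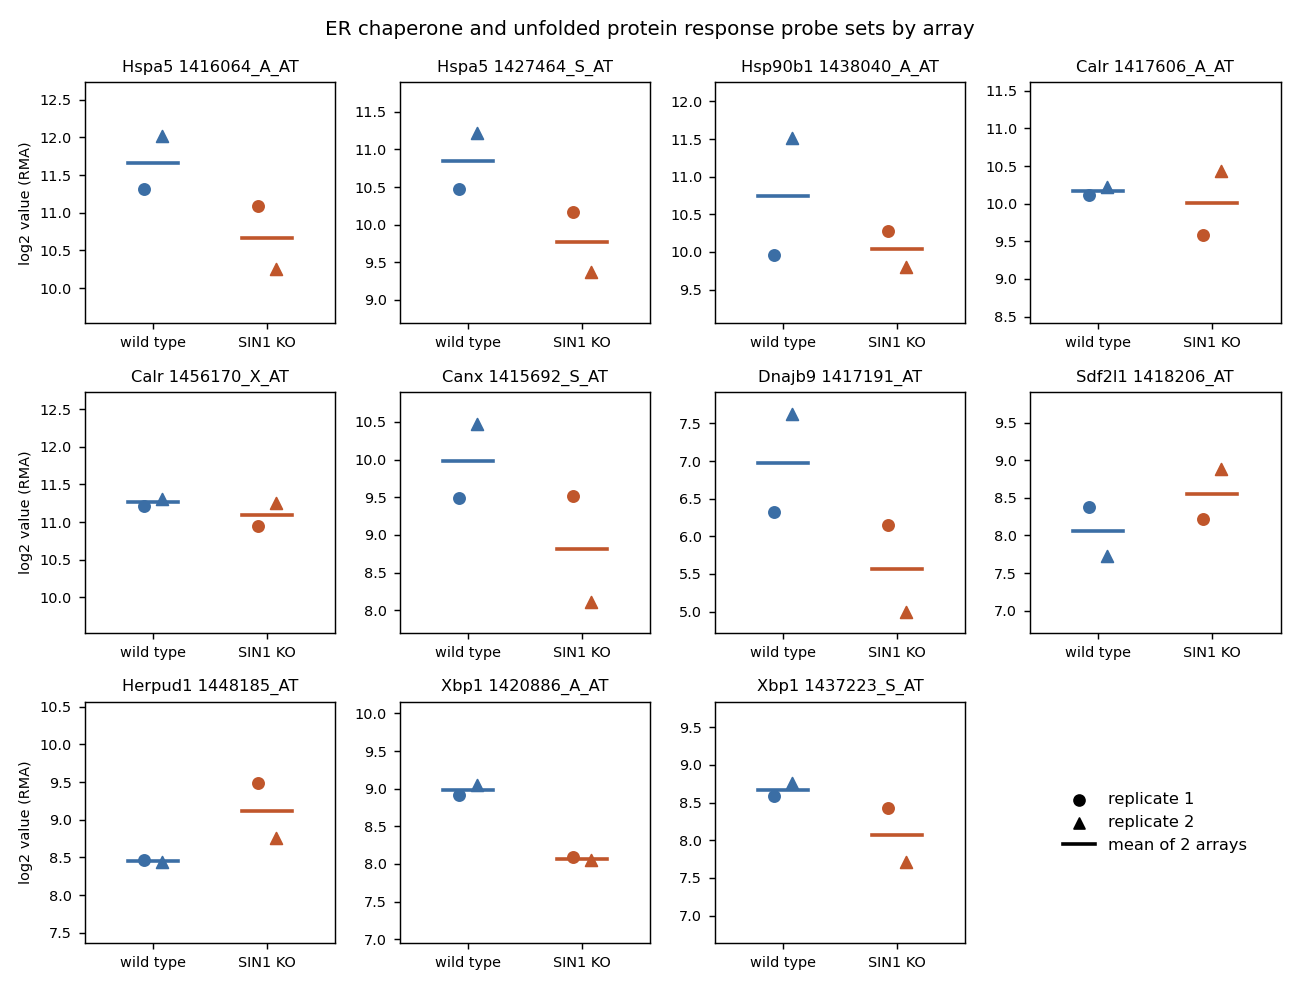
Log2 value (vertical axis, RMA) of each of the 11 probe sets on each array, by genotype. Circles are replicate 1, triangles replicate 2 and bars the mean of 2 arrays; every panel spans the same number of log2 units. The SIN1 KO arrays lie below the wild type arrays for both Hspa5 and both Xbp1 probe sets and for Dnajb9, and above them for Herpud1.

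Hspa5 encodes BiP, the HSP70 chaperone of the ER lumen, which also holds the stress sensors inactive. Probe set 1416064_A_AT measured 11.31 and 12.02 in the wild type arrays and 11.08 and 10.25 in the SIN1 KO arrays. The genotypes did not overlap, but SIN1 KO 1 lay only 0.23 below wild type 1. The difference of -1.0 (SE 0.44, 95% interval -2.19 to 0.19) is a level 2.00-fold lower in SIN1 KO, with a limma adjusted p of 0.82. The other Hspa5 probe set, 1427464_S_AT, measured 10.47 and 11.22 on the wild type arrays, against 10.17 and 9.37 on those of SIN1 KO. The second ordered the arrays as the first did, with a difference of -1.07 (SE 0.44, adjusted p 0.82 in limma's fit). In both, the difference exceeded the distance between the 2 arrays of either genotype. The first probe set differed by -0.58 without SIN1 KO 2 and by -0.65 without wild type 2, and the second by -0.67 and -0.70. As the mean of its 2 probe sets, Hspa5 averaged 11.25 ± 0.51 (SD) among wild type and 10.22 ± 0.58 (SD) among SIN1 KO arrays (n = 2 each), 2.05-fold lower, with an exact permutation p of 0.333. The s in an ID marks probes that may bind transcripts of several genes, and 4 of the 11 IDs carry s or x.

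Hsp90b1 encodes GRP94, the HSP90 chaperone of the ER, which folds integrins and Toll-like receptors. Probe set 1438040_A_AT measured 9.96 and 11.51 on the wild type arrays, against 10.27 and 9.79 on those of SIN1 KO. Wild type 2 stood apart from the other 3 arrays, and SIN1 KO 1 was above wild type 1, so the genotypes overlapped. The difference of -0.71 (SE 0.60, limma adjusted p 0.826) was smaller than the 1.55 between the wild type arrays, and without wild type 2 it was 0.07.

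Calr and Canx encode calreticulin and calnexin, the soluble and the membrane-bound lectin chaperones that retain glycoproteins until they are folded. Calreticulin showed the smallest differences of the 8 genes. Its probe set 1417606_A_AT measured 10.12 and 10.22 on the wild type arrays, against 9.59 and 10.44 on those of SIN1 KO, so that both wild type arrays lay between the SIN1 KO arrays. The difference was -0.16 (95% interval -1.17 to 0.85, limma adjusted p 0.936). The other, 1456170_X_AT, measured 11.22 and 11.31 on the wild type arrays, against 10.94 and 11.26 on those of SIN1 KO, a difference of -0.16 (95% interval -0.88 to 0.55, adjusted p 0.903 in limma's fit). Both differences turned to 0.16 after scaling to the hybridisation controls. These are control transcripts added at the hybridisation step and not to the RNA sample. These controls averaged 11.79 on wild type and 11.47 on SIN1 KO arrays as deposited, and scaling to them moves the median difference of all probe sets from 0.04 to 0.36.

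Calnexin gave a wider difference than calreticulin, set by the number 2 arrays. Canx probe set 1415692_S_AT measured 9.49 and 10.48 on the wild type arrays, against 9.51 and 8.11 on those of SIN1 KO. The number 1 arrays of the genotypes were nearly equal, with SIN1 KO 1 above wild type 1 by 0.02, so the genotypes overlapped. The difference of -1.17 (SE 0.63, limma adjusted p 0.82) was -0.47 without SIN1 KO 2 and -0.68 without wild type 2.

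Dnajb9 encodes ERdj4, a J-domain partner of BiP that takes part in the degradation of misfolded proteins and keeps IRE1 in check. Probe set 1417191_AT measured 6.32 and 7.63 on the wild type arrays, against 6.15 and 5.0 on those of SIN1 KO. It was the lowest on SIN1 KO 2 and the highest on wild type 2, and the genotypes were apart by 0.18 at their nearest arrays. Its difference of -1.41 (SE 0.64, 95% interval -3.11 to 0.30), a level 2.65-fold lower in SIN1 KO, was the largest of the 11, with a limma adjusted p of 0.82. It was -0.83 without SIN1 KO 2 and -0.75 without wild type 2.

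Sdf2l1, an ER-resident partner of BiP complexes that is induced in the unfolded protein response, ran the other way. Probe set 1418206_AT measured 8.38 and 7.73 on the wild type arrays, against 8.22 and 8.88 on those of SIN1 KO. SIN1 KO 2 was the highest array and wild type 2 the lowest, and the number 1 arrays lay between them in the opposite order. The difference was 0.49 (SE 0.39, limma adjusted p 0.825), 1.41-fold higher in SIN1 KO, and 0.17 without either number 2 array.

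Herpud1 encodes a membrane protein of the ubiquitin ligase complex that exports misfolded proteins from the ER for degradation. Probe set 1448185_AT measured 8.46 and 8.44 in wild type, an SD of 0.01, and 9.49 and 8.75 in SIN1 KO. Both SIN1 KO arrays were above both wild type arrays, by at least 0.29. The difference was 0.67 (SE 0.35, 95% interval -0.26 to 1.61), a level 1.59-fold higher in SIN1 KO, with a limma adjusted p of 0.82. It was less than the 0.74 between the SIN1 KO arrays, and leaving out SIN1 KO 2 gave 1.04 and leaving out SIN1 KO 1 gave 0.30. Herpud1 was the single gene of the 8 that was higher in SIN1 KO within both replicate numbers.

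Xbp1 encodes the transcription factor that IRE1 activates by splicing its mRNA. Whether any probe separates the spliced from the unspliced form is not given in the sources used here. Which form these values measure is therefore not known. Probe set 1420886_A_AT measured 8.91 and 9.06 on the wild type arrays, against 8.09 and 8.05 on those of SIN1 KO. The arrays of a genotype agreed within 0.14, and the genotypes were apart by 0.82, the widest gap among the 11. The difference of -0.91 (SE 0.25, 95% interval -1.58 to -0.25), a level 1.88-fold lower in SIN1 KO, had an unadjusted limma p of 0.0179 and an adjusted p of 0.82. The difference stayed between -0.98 and -0.84 when any 1 array was left out. The call was lost in those fits, which have fewer degrees of freedom, so the loss cannot show dependence on a given array. The other probe set, 1437223_S_AT, measured 8.58 and 8.76 on the wild type arrays, against 8.43 and 7.71 on those of SIN1 KO. There SIN1 KO 1 lay 0.15 below wild type 1, and the difference of -0.60 (SE 0.35, adjusted p 0.82 in limma's fit) was -0.24 without SIN1 KO 2. As the mean of both probe sets, Xbp1 averaged 8.83 ± 0.11 (SD) among wild type and 8.07 ± 0.27 (SD) among SIN1 KO arrays (n = 2 each), 1.69-fold lower, with an exact permutation p of 0.333.

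**Figure D2:**
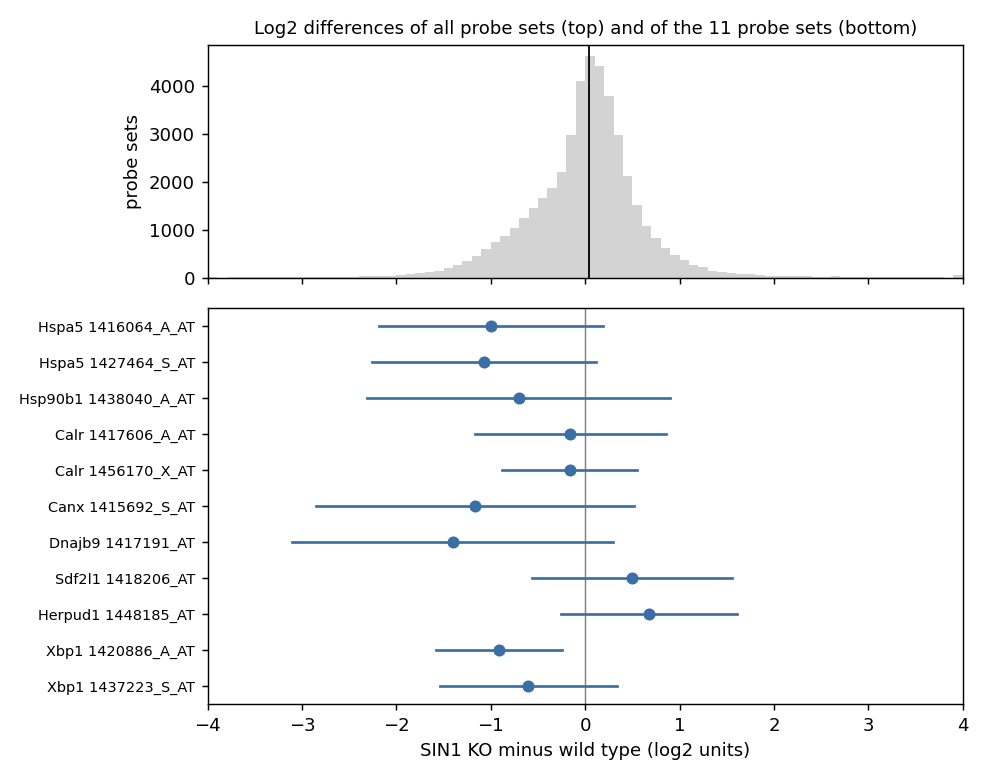
Top, number of probe sets (vertical axis) by log2 difference, SIN1 KO minus wild type, for all 45037 probe sets; the line is their median of 0.04, and values beyond the axis are in the end bins. Bottom, the same difference for the 11 probe sets on the same axis, as points with 95% intervals from the fit to all probe sets; the interval of Xbp1 1420886_A_AT excludes 0, without adjustment for the number of tests.

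The labels do not pair arrays by number, so differences within a number depend on that matching. Within numbers, the differences were unequal. A crosswise matching was added after the data were seen. Matched crosswise (SIN1 KO 1 minus wild type 2, then SIN1 KO 2 minus wild type 1), Dnajb9 gave -1.49 and -1.33. Canx gave -0.97 and -1.38, and Hspa5 -0.93 and -1.07 in 1 probe set, -1.04 and -1.10 in the other. Sdf2l1, higher in SIN1 KO, gave 0.49 and 0.49, and Xbp1 1420886_A_AT gave -0.96 and -0.86. The crossed differences of Hsp90b1, -1.24 and -0.17, stayed apart, as did those of Xbp1 1437223_S_AT, -0.33 and -0.87. Those of Calr and Herpud1 lay farther apart than within numbers. Between the number 2 arrays, 7 of the 11 probe sets were at least 1 log2 unit lower in SIN1 KO, as were 16.9% of all probe sets. They were Dnajb9 (-2.63), Canx (-2.37), Hspa5 (-1.85 and -1.77), Hsp90b1 (-1.72) and Xbp1 (-1.05 and -1.01). The 11 all fall among the brighter probe sets, for which the shares in this paragraph were not counted. Between the number 1 arrays, only Herpud1, at 1.03, differed by 1 log2 unit or more, as did 8.01% of all probe sets in either direction. There Dnajb9 differed by -0.18, Canx by 0.02, Hspa5 by -0.23 and -0.29, and Hsp90b1 by 0.31. The median over the 11 was -1.05 in the number 2 arrays and -0.18 in the number 1 arrays, beside 0.13 and -0.02 over all probe sets. Xbp1 1420886_A_AT was similar in both, at -0.82 in the number 1 and -1.01 in the number 2 arrays. The Calr probe sets differed more between the number 1 arrays, by -0.53 and -0.27, than between the number 2 arrays, by 0.21 and -0.05. In both numbers, 6 probe sets were lower in SIN1 KO and 1 was higher, and 4 changed sign.

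**Figure D3:**
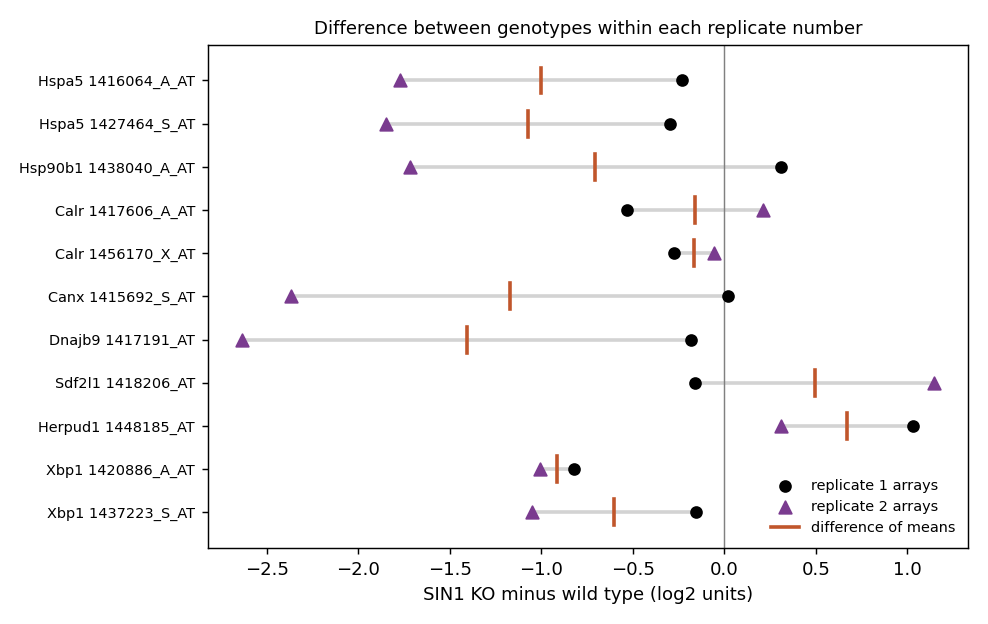
Difference SIN1 KO minus wild type (horizontal axis, log2 units) for each probe set between the replicate 1 arrays (circles) and between the replicate 2 arrays (triangles), with the difference of means as a bar. The labels do not pair the arrays by number. Hspa5, Hsp90b1, Canx and Dnajb9 lie between -1.72 and -2.63 in replicate 2 and between -0.29 and 0.31 in replicate 1, whereas the values of Xbp1 1420886_A_AT lie together.

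The order of the 4 arrays repeated across probe sets, a pattern counted after the values were seen. In 7 of the 11, those of Hspa5, Hsp90b1, Canx, Dnajb9 and Xbp1, wild type 2 was the highest array and SIN1 KO 2 the lowest. This held for 16.2% of all probe sets, and for 24.7% of the brighter 22519. The reverse, SIN1 KO 2 highest and wild type 2 lowest, was seen in 1 of the 11, Sdf2l1, in 22.5% of all probe sets and in 24.3% of the brighter ones. Calr and Herpud1 followed neither order. The labels name no difference between the number 1 and the number 2 arrays, and the part that culture, RNA or array handling has in this order was not tested.

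The genes with an ER stress response element did not share 1 pattern. Hspa5, Hsp90b1 and Canx had wild type 2 highest and SIN1 KO 2 lowest, with differences from -1.17 to -0.71, while Calr differed by -0.16. Herpud1, with the element II, was higher in SIN1 KO by 0.67. Among the genes with no match in the window, Dnajb9 and Xbp1 were lower in SIN1 KO and Sdf2l1 was higher.

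After scaling to the hybridisation controls, the differences of Hspa5 (-0.68 and -0.75), Canx (-0.85), Dnajb9 (-1.09), Hsp90b1 (-0.38) and Xbp1 (-0.59 and -0.28) stayed negative and those of Sdf2l1 (0.81) and Herpud1 (0.99) positive. The genotypes were then separated in 1 probe set lower in SIN1 KO, Xbp1 1420886_A_AT, and in 2 higher, Herpud1 and Sdf2l1. Sdf2l1 had overlapped on the values as deposited. Under that scaling 4.21% of all probe sets were separated lower and 51.4% higher.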

How the data were processed

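The 4 arrays came as 1 table of log2 values per probe set, which the authors made with RMA (background correction, normalization between arrays and summary of probes), per the submitters' processing notes; its version and probe definition are not stated there. The log2 scale was read from the values. Genotype and replicate number came from the titles. The table pairs no probe set with a gene, so the other pathway genes and cell type markers listed for this work were not analysed here; the symbols of the 11 probe sets came with their selection. The 64 control probe sets were left out of the tests. The genotypes were compared over the remaining 45037 with limma 3.58.1 in R 4.3.3 (lmFit and eBayes, no filter, no block), adjusting by Benjamini-Hochberg and calling under 0.05; the number of arrays limits the precision, and the median SE was 0.33. The fit was tested on simulated data. Genes with 2 probe sets were averaged for an exact permutation test in scipy 1.17.1. Every probe set of the selection is named. The members and lists were chosen with earlier results of these data known. Alternatives were a filter, variance priors, 3 scalings, a background floor, a replicate block, left-out arrays, genes in place of probe sets and a crossed block added after seeing the data. Figures were drawn with matplotlib 3.10.9.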

Additional observations from a re-analysis of the deposited data

How the results depend on the processing

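The median difference of the 11 probe sets, -0.71, was negative under every alternative run: -0.38 under scaling to hybridisation controls, -0.98 to -0.47 with 1 array left out, and -0.18 in the number 1 arrays alone. The 5 probe sets lower on both SIN1 KO arrays became 1 under that scaling, 3 of 8 genes, 3 of the 7 probe sets without an s or x ID, and 5 to 8 with 1 array left out (8 without wild type 1); the 1 higher became 2 and 1 to 3 (2 without wild type 1, 3 without SIN1 KO 1). Left-out arrays loosen this count by construction. No share of all probe sets was counted with an array left out, by gene or without s and x IDs. The counts in those settings therefore have no background to be read against. Reversed differences were those of Hsp90b1 (-1.48 to 0.069 with 1 array left out, the latter without wild type 2, and 0.31 in the number 1 arrays), Calr 1417606_A_AT (0.16 under hybridisation control scaling, -0.58 to 0.26 with 1 array left out, the latter without SIN1 KO 1, 0.21 in the number 2 arrays), Calr 1456170_X_AT (0.16 under that scaling), Canx (0.023) and Sdf2l1 (-0.16), both in the number 1 arrays; the cause was not tested. Of 165 alternative values of single probe sets, 157 kept their direction and 8 reversed. The filter, the priors, the blocks and the floor left each difference unchanged by construction. Values from these settings could not reverse, and they are counted in the 157. The limma adjusted p in fits with all 4 arrays was 0.304 (crossed pairing) to 1. At the unadjusted threshold 1 of the 11 was called, and 0 with the replicate block, the filter or hybridisation control scaling. The trended prior called 2. The crossed pairing called 5, each lower in SIN1 KO, and 6372 of all 45037 probe sets, 3473 of them lower. No member lay under its array's background, so the floor changed no value.

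Over all probe sets, 0 passed the adjusted threshold except 5, each higher, with the filter at the median level (fewer tested); none of the 11 was among them. At the unadjusted threshold 2509 passed (1350 higher, 1159 lower), 1324 with the filter, 5751 under hybridisation control scaling (5381 higher, 370 lower) and 1119 to 3873 with 1 array left out (3873 without wild type 1, 1258 without wild type 2, 1119 without SIN1 KO 2). The titles share replicate numbers. In the Calr and Herpud1 probe sets, arrays with the same number deviated from their genotype means in the same sense. Over all probe sets, such arrays tended to deviate in opposite senses (r = -0.415). The replicate block gave 1293 at the unadjusted threshold and 0 at the adjusted one, while the crossed pairing, added after this was seen, gave 6372 and 0 as a block. With the trended prior, 2512 passed the unadjusted threshold.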
